A study of Mus musculus with 8 samples.

Results

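The genes that release neurotransmitter were examined for peaks of the nuclear factor I proteins NFIA, NFIB and NFIX in cerebellar granule neuron progenitors. The list held 38 of 21951 annotated protein-coding genes and was given by name. It covers synaptotagmins, proteins of the SNARE fusion complex and their regulators, vesicle proteins, and scaffolds of the active zone. A peak belonged to a member when it overlapped the gene body, or when the nearest protein-coding transcription start site (TSS) within 100 kb was that of the member. Overlapping peaks of the 6 lists, sharing 1 bp or more, were joined into regions, and 211 of 46070 regions lay at the members. A region with a peak in all 6 lists is called common, and 28 of 6062 common regions lay at the members.

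Chromatin immunoprecipitation with sequencing (ChIP-seq) had been done on progenitors dissociated from the cerebellum of mice at postnatal day 7. Each of the 3 factors had 1 library from a mixed background, which the labels liken to outbred CD1 stock, and 1 library from CD1 mice. The libraries are named NfiX Mixed, NfiX CD1, NfiB Mixed, NfiB CD1, NfiA Mixed and NfiA CD1. No group carried an engineered allele or a treatment. Of the 8 samples, 2 were inputs and were not analysed here. Whether each library had its own animals or cultures is not said in the labels. The NFIB antibody is given as one of Novus Biologicals in the sample labels and as one of Sigma in the design text, and which was used was not settled. The lists held 7497 to 36431 peaks. They give no read totals, so the depth is unknown. They hold no expression values either, so the cell type could not be checked against its markers.

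A neurotransmitter vesicle is filled, docked at the active zone, and primed when a vesicle SNARE of the Vamp family pairs with Stx1a and Snap25 of the plasma membrane. Calcium that enters through channels nearby binds a synaptotagmin (Syt), and the membranes fuse. Granule neuron progenitors divide at the surface of the young cerebellum and have not yet made synapses, whereas the granule neurons they give rise to release glutamate onto Purkinje cells. NFI proteins bind DNA as dimers, on a palindrome of TGGC and GCCA arms around a short spacer, and can bind a single arm more weakly.

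A region was found at 31 of the 38 members (81.6%), against 47.5% of all protein-coding genes. A common region was found at 13 members (34.2%), against 12.9% of all genes. The 13 were Stxbp5l, Syn2, Syt1, Snap25, Sv2c, Syt9, Syt6, Rab3c, Syn3, Sv2b, Pclo, Stx1a and Rims1. Another 18 members had a region but no common one. The other 7 had no peak of any library, and these were Syt5, Vamp1, Vamp2, Cplx1, Snap91, Syn1 and Syp. The median was 3.50 regions per member and 0 per protein-coding gene. The count of common regions turned on 1 library. Without NfiX CD1, the shortest list, 22 members had a region shared by the other 5 libraries, and the regions so shared numbered 56. Member regions were common in 13.3% and lacked NfiX CD1 alone in another 13.3%. Away from the members these shares were near, at 13.2% and 12.1%. With gene bodies alone, 8 members held 15 common regions. The shares of all genes under these settings were not computed, so the counts describe the members only.

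Gene length moved with the count of common regions. The members had a median length of 68.2 kb, against 17.4 kb over all protein-coding genes. The 13 members with a common region had a median length of 194 kb, and the 7 with no region one of 30.4 kb. Of the 12 members of 150 kb or longer, 9 (75.0%) had a common region, against 56.5% of the 1477 genes of that length. Of the 11 members of 50 to 150 kb, 3 (27.3%) had one, against 22.3% of 3530 genes. Of the 15 members under 50 kb, 1 (6.67%) had one, against 7.09% of 16944 genes. For a region of any library, the members' share was 100% against 94.4% of genes of 150 kb or longer, and 81.8% against 74.5% of genes of 50 to 150 kb. Under 50 kb it was 66.7%, 10 of 15 members, against 37.8%. The share of members with a common region was thus nearer to the background within each length class than over all genes. At 150 kb or longer it still lay above the background. The share with any region still lay well above it under 50 kb. Per 100 kb of gene body, the members of 150 kb or longer held 2.71 regions and all genes of that length 2.5. For common regions the values were 0.271 at these members and 0.334 at all such genes. At 10 members (26.3%) lay 10 or more regions, against 3.63% of all genes, and these 10 held 131 of the 211 regions.

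**Figure D1:**
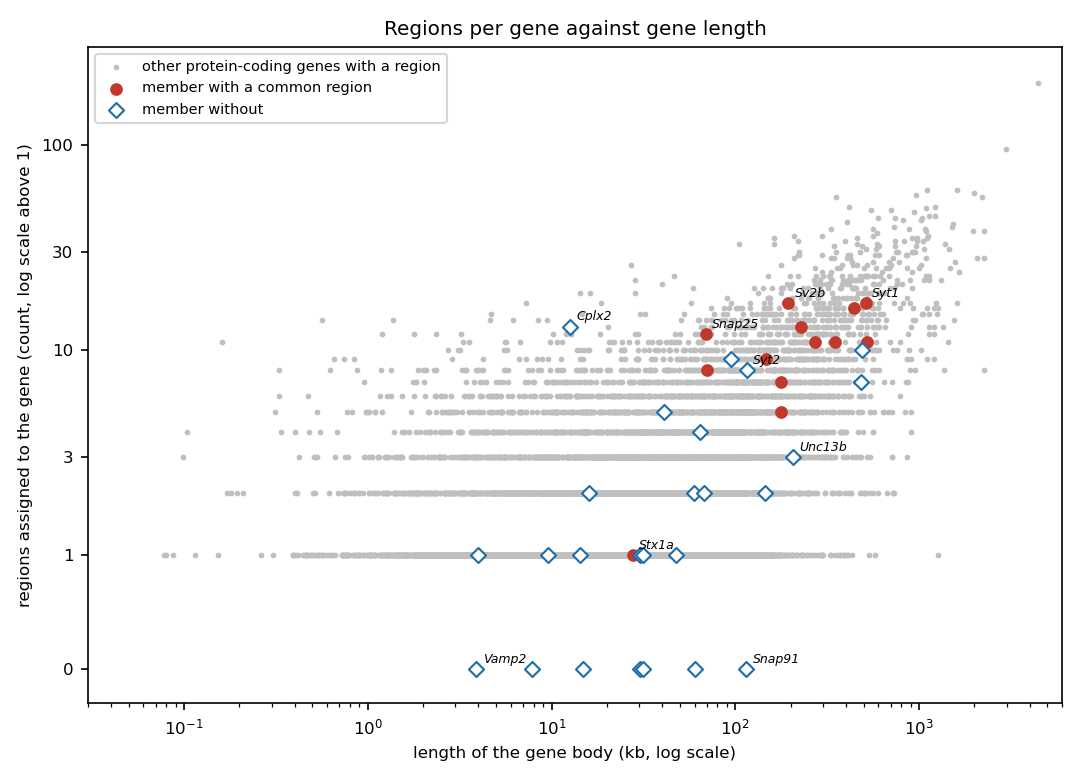
Number of regions assigned to a gene (y axis, count, logarithmic above 1) against the length of its gene body in kb (x axis, logarithmic). Filled circles are the 13 members with a common region, open diamonds the other 25 members, and grey points all other protein-coding genes with a region. Cplx2, 12.6 kb long, had 13 regions, while Snap91, 115 kb long, had none.

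The peak lists of the 6 libraries gave the members similar shares. Members held 106 of 21443 peaks in NfiX Mixed, which is 0.494% (95% Wilson interval 0.409 to 0.597), and 38 of 7497 in NfiX CD1, 0.507% (0.370 to 0.695). They held 161 of 33283 peaks in NfiB Mixed, 0.484% (0.415 to 0.564), and 165 of 36431 in NfiB CD1, 0.453% (0.389 to 0.527). They held 105 of 23541 peaks in NfiA Mixed, 0.446% (0.369 to 0.540), and 78 of 16993 in NfiA CD1, 0.459% (0.368 to 0.572). All 6 intervals overlapped, and the mean share was 0.474% ± 0.0247 (SD, n = 6 libraries). The intervals cover counting error only. The number of members with a region was 25 of 38 (65.8%) in NfiX Mixed, against 30.2% of all genes. It was 15 (39.5%) in NfiX CD1 against 15.1%. For NFIB it was 29 (76.3%) in NfiB Mixed against 40.3%, and 28 (73.7%) in NfiB CD1 against 41.2%. For NFIA it was 25 (65.8%) in NfiA Mixed against 33.1%, and 22 (57.9%) in NfiA CD1 against 25.6%.

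**Figure D2:**
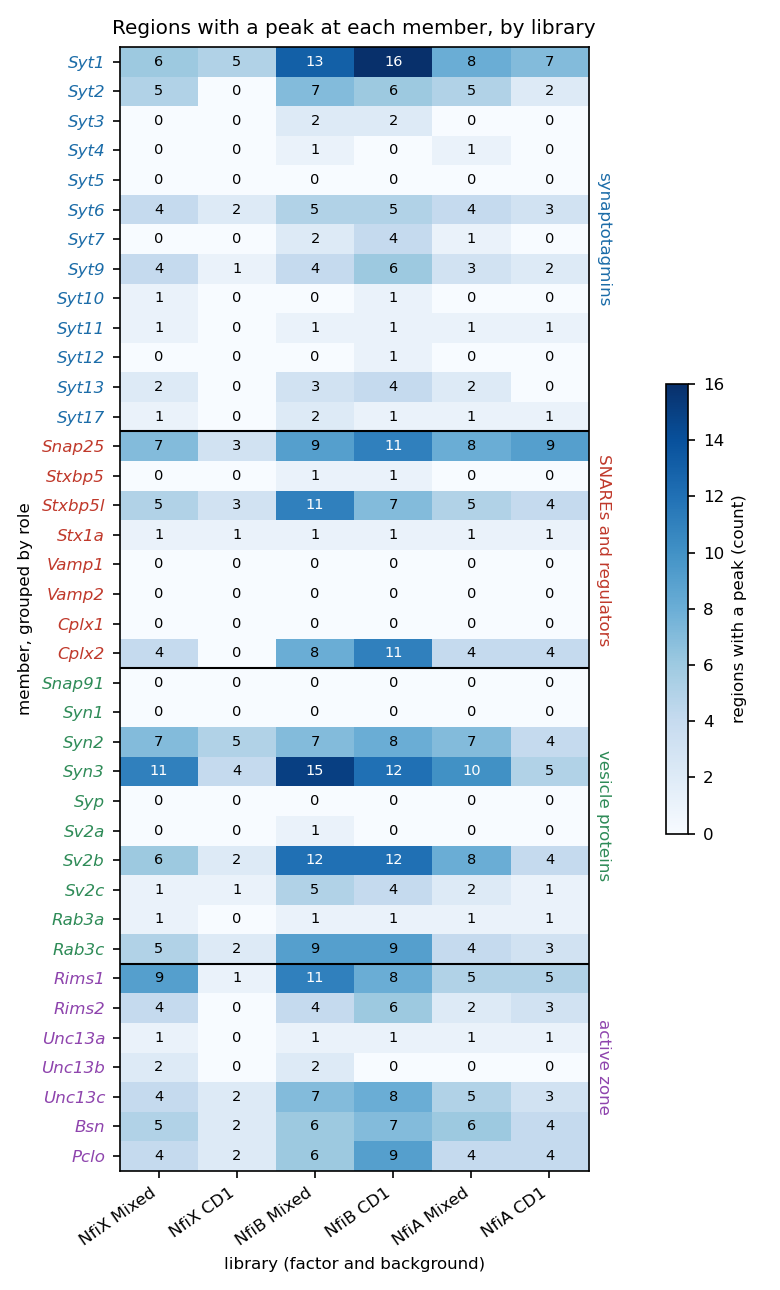
Number of regions with a peak at each of the 38 members (rows, grouped by role) in each of the 6 libraries (columns), with the colour scale giving the same count. Syt1 had 13 regions in NfiB Mixed and 16 in NfiB CD1, and the rows of 7 members are 0 throughout.

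Fold enrichment, the ratio of fragments at a summit to the local background, is the authors' own value for each peak. The lists differ in length and share no scale, so folds and their percentiles are used to describe and rank peaks within a list, and no change between libraries is read from them. The median fold of member peaks was 6.63 in NfiX Mixed, against 6.03 for the other peaks of that list. It was 6.04 against 5.98 in NfiX CD1, 5.55 against 5.52 in NfiB Mixed, 5.61 against 5.76 in NfiB CD1, 6.25 against 5.50 in NfiA Mixed, and 5.97 against 5.79 in NfiA CD1. On the log2 scale the difference, members minus others, averaged 0.06 ± 0.08 (SD, n = 6 libraries), which is smaller than the spread between libraries.

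DNA bases were readable where a region crossed an annotated exon or a promoter window, since no whole genome sequence was used. Both strands were searched for the NFI palindrome TGGCNNNNNGCCA, for the single-arm element TTGGCA, and for a control with the same arms set 8 bases apart, TGGCNNNNNNNNGCCA. A palindrome can overlap a single-arm element. Readable bases, 7096 in all, fell in 25 member regions, of which 2 held the palindrome and 10 the single-arm element. Exonic windows reaching 50 bp to each side of a summit could be read for 43 member peaks, and these lay in 14 regions because libraries share sites. The palindrome lay in 6 of the 43 windows (14%), which belonged to 2 of the 14 regions, 14.3% (95% Wilson interval over regions 4.01 to 39.9). At the other peaks it lay in 9.01% of 8039 windows and in 7.18% of 3424 regions. In windows set 1 kb to the side it lay at 0 of 25 member regions, which allows a share of up to 12%, and at 0.390% of the others. The control lay at 0 of the 14 member regions around summits, which allows up to 21.4%, and at 0.847% of the others. The single-arm element lay at 5 of the 14 regions, 35.7% (16.3 to 61.2), against 25.2% of the others. With 14 regions, no difference from the other peaks was detectable.

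The 4 stretches printed here are the 2 palindromes that could be read, at Bsn and Syn3, and single-arm elements of the Sv2b common region and of the Rab3a region, all in capitals. The first is a coding exon of Dag1, 18.7 kb upstream of Bsn, where 5 libraries had a peak. The second is an exon of the long noncoding transcript 1500012K07Rik, 20.6 kb upstream of Sv2b, in a common region. The third is an exon of Timp3, a gene nested in Syn3. The centre of its region lay 0.095 kb from the Timp3 start and 189 kb from the nearest Syn3 start. The fourth is the end of Rab3a, where it meets Mpv17l2. All are on the plus strand of build mm10.
Bsn region, chr9:108209009-108209109: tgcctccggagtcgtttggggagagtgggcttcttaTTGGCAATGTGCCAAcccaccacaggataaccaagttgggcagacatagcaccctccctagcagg
Sv2b region, chr7:75329842-75329942: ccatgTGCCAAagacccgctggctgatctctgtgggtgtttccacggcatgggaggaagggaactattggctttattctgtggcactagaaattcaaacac
Syn3 region, chr10:86303014-86303038: tcactcTGGCCAGATGCCAtgctgc
Rab3a region, chr8:70758367-70758391: ggcggggccTGCCAAccccgaggct
The centre of the element lay 7 bp from the median summit at Bsn, 42 bp at Sv2b, 77 bp at Syn3 and 26 bp at Rab3a. The Bsn stretch holds a full palindrome whose arms are each part of a single-arm element, TTGGCA on one strand and TGCCAA as its reverse complement. A match describes the letters and is not a measured contact.

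Of the 13 synaptotagmin genes, most of which encode calcium sensors, 12 had a region and 3 had a common one, with 58 regions and 7 common regions in all. These shares were 92.3% and 23.1%, against 47.5% and 12.9% of all genes, and 74.5% and 22.3% of genes of 50 to 150 kb. The group's median length was 59.5 kb. Syt1, the main calcium sensor of fast synchronous release, had 17 regions, 4 of them common. Its leading common region (chromosome 10, 108979448 to 108980102) lay in an intron, 29.3 kb inside the nearest Syt1 start. There the fold was 10.64 in NfiX Mixed, 8.51 in NfiX CD1, 14.46 in NfiB Mixed, 16.54 in NfiB CD1, 9.58 in NfiA Mixed and 9.83 in NfiA CD1. The peak stood at a mean percentile of 89.5 within the 6 lists and ranked 1201 of 6062 common regions. By library, Syt1 had 6 regions in NfiX Mixed, 5 in NfiX CD1, 13 in NfiB Mixed, 16 in NfiB CD1, 8 in NfiA Mixed and 7 in NfiA CD1. Of the 17 regions, 8 had peaks in NfiB libraries alone.

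Syt9, a fast sensor related to Syt1, had 7 regions, all in the gene body, and 1 was common. This intronic region (chromosome 7, 107399958 to 107400721) lay 29.5 kb inside a Syt9 start. Its folds were 10.15 in NfiX Mixed, 6.54 in NfiX CD1, 15.05 in NfiB Mixed, 14.01 in NfiB CD1, 10.93 in NfiA Mixed and 9.12 in NfiA CD1. Syt6, known from the release of the sperm acrosome, had 8 regions, 7 of them upstream. Its leading common region (chromosome 3, 103517145 to 103517730) lay 57.7 kb upstream, with folds of 8.89, 6.48, 11.04, 12.19, 9.87 and 9.56 in the same order of libraries. In all 3 genes the peak stood lowest within the NfiX CD1 list, at percentile 81.7 for Syt1, 61.4 for Syt9 and 60.4 for Syt6, and at 79.5 or more within each of the other 5. The leading common region of every other member that had one also stood lowest in NfiX CD1, save that of Pclo. That list is the shortest, and no change between libraries is read from these percentiles.

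The other synaptotagmins had no common region. Syt2, the fast sensor of many hindbrain synapses, had 8 regions in its gene body, and 2 of them had peaks in the 5 libraries other than NfiX CD1. The stronger (chromosome 1, 134699307 to 134699808) had folds of 7.80 in NfiX Mixed, 9.07 in NfiB Mixed, 9.11 in NfiB CD1, 5.34 in NfiA Mixed and 5.35 in NfiA CD1. Syt11, which does not bind calcium, had 1 intronic region in those 5 libraries, with folds of 3.55 to 4.41. Syt17 had 1 such region, with folds of 3.55 to 6.13, and another in NfiB Mixed alone. Syt13, which does not bind calcium either, had 5 regions, of which 2 had peaks in 4 libraries, namely NfiX Mixed, both NfiB libraries and NfiA Mixed. Syt7, a sensor of slow, asynchronous release and of facilitation, had 4 regions, all of 4.18-fold enrichment or less and all with a peak in NfiB CD1, 2 also in NfiB Mixed and 1 also in NfiA Mixed. Syt3, a sensor with a part in AMPA receptor uptake, had 2 regions, each in both NfiB libraries alone. Syt4, of dense-core vesicles, had 1, in NfiB Mixed and NfiA Mixed. Syt10, a sensor of IGF1 release in olfactory neurons, had 1 in NfiX Mixed and 1 in NfiB CD1, and Syt12 had 1 in NfiB CD1. Syt5, a gene of 7.78 kb, had none.

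Of the SNARE genes and their regulators, 5 of 8 had a region and 3 a common one, with 39 regions and 7 common regions. These shares were 62.5% and 37.5%, against 47.5% and 12.9% of all genes, and 37.8% and 7.09% of genes under 50 kb. The group's median length was 30.9 kb. Stxbp5l, a tomosyn that holds syntaxin and SNAP25 in a complex that cannot fuse, had the strongest region of the list. It lay 74.2 kb upstream in intergenic DNA (chromosome 16, 37458534 to 37459964). Folds were 38.44 in NfiX Mixed, 18.37 in NfiX CD1, 29.26 in NfiB Mixed, 30.71 in NfiB CD1, 17.66 in NfiA Mixed and 20.92 in NfiA CD1. Its mean percentile was 99.5, and it ranked 36 of 6062 common regions. Of the 11 regions at Stxbp5l, 7 lay 38.1 to 74.2 kb upstream, and all 3 common ones were among these. The other tomosyn gene, Stxbp5, had 2 regions, 1 in NfiB Mixed and 1 in NfiB CD1.

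Snap25, which gives the fusion complex a pair of its helices, had 12 regions, 8 of them 9.86 to 64.6 kb upstream. All 3 common regions lay upstream, at 27.0, 23.8 and 13.5 kb, and another 3 upstream regions had peaks in every library but NfiX CD1. The leading one (chromosome 2, 136689423 to 136689884) had folds of 11.39 in NfiX Mixed, 7.89 in NfiX CD1, 11.33 in NfiB Mixed, 15.54 in NfiB CD1, 11.78 in NfiA Mixed and 10.13 in NfiA CD1. The 4 regions inside Snap25 were present in fewer than 5 libraries each. Stx1a, the syntaxin of the plasma membrane, had a single region (chromosome 5, 135021801 to 135022279), 1.4 kb upstream of its start, and it was common. Folds there were 9.63 in NfiX Mixed, 5.95 in NfiX CD1, 10.96 in NfiB Mixed, 9.47 in NfiB CD1, 7.86 in NfiA Mixed and 6.37 in NfiA CD1. Within its list the Stx1a peak stood at percentile 83.2 in NfiX Mixed and 89.2 in NfiB Mixed, and at 49.4 in NfiX CD1.

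Cplx2, a complexin that clamps and then aids fusion, had 13 regions although the gene body is 12.6 kb long. Of these, 10 lay 6.58 to 69.4 kb upstream, 2 lay downstream and 1 at the start. None held a peak of NfiX CD1. In the other 5 libraries 3 of them had peaks, the strongest 61.8 kb upstream (chromosome 13, 54309269 to 54309801) with folds of 6.95 in NfiX Mixed, 7.91 in NfiB Mixed, 7.95 in NfiB CD1, 5.68 in NfiA Mixed and 4.44 in NfiA CD1. A further 7 were in NfiB libraries alone. Its relative Cplx1 had no region, nor had the vesicle SNAREs Vamp1 and Vamp2.

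Of the 10 genes of vesicle proteins, 7 had a region and 5 a common one, with 62 regions and 11 common regions. These shares were 70% and 50%, against 47.5% and 12.9% of all genes, and 74.5% and 22.3% of genes of 50 to 150 kb. The group's median length was 131 kb. Synapsins tether vesicles to actin and to one another. Syn2 had 9 regions, and 4 were common. The leading one (chromosome 6, 115225452 to 115226023) lay in an intron, 12.8 kb from the nearest Syn2 start, but nearer to the start of the nested gene Gm17482 at 1.65 kb. Its folds were 19.53 in NfiX Mixed, 12.44 in NfiX CD1, 25.30 in NfiB Mixed, 23.65 in NfiB CD1, 17.69 in NfiA Mixed and 13.93 in NfiA CD1, with a mean percentile of 97.9 and a rank of 177. A second intronic region of Syn2 (115178146, its start) had a mean percentile of 96.4 and folds from 12.27 to 21.08. Syn2 thus held 2 of the 3 common regions with the highest percentiles at members, beside the one at Stxbp5l.

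Syn3 had 16 regions and 3 common ones, all within a gene body of 444 kb that also contains Timp3 on the other strand, and 7 of the 16 overlapped Timp3. Its leading region (chromosome 10, 86479406 to 86480291) had folds of 12.73 in NfiX Mixed, 6.16 in NfiX CD1, 12.82 in NfiB Mixed, 10.96 in NfiB CD1, 8.01 in NfiA Mixed and 6.50 in NfiA CD1. The region in the Timp3 exon shown above was weaker, with folds of 4.08 in NfiX Mixed, 3.65 in NfiB Mixed, 3.97 in NfiB CD1 and 3.79 in NfiA Mixed. Syn1, the third synapsin, is on the X chromosome and had no region. Syp, a tetraspan vesicle protein also on X, had none, and neither had Snap91, a clathrin adaptor of vesicle retrieval.

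The SV2 proteins are vesicle glycoproteins that bind synaptotagmin. Sv2b had 17 regions, as many as Syt1, and 2 were common. Its leading region, that of the 1500012K07Rik exon above (chromosome 7, 75328822 to 75330176), had folds of 8.72 in NfiX Mixed, 4.83 in NfiX CD1, 15.09 in NfiB Mixed, 15.40 in NfiB CD1, 11.14 in NfiA Mixed and 7.76 in NfiA CD1. Sv2c had 5 regions and 1 common one, 43.2 kb upstream (chromosome 13, 96175500 to 96176014). Folds there were 15.63 in NfiX Mixed, 6.16 in NfiX CD1, 16.51 in NfiB Mixed, 15.64 in NfiB CD1, 12.28 in NfiA Mixed and 11.34 in NfiA CD1. Sv2a, the most widely expressed of the family, had 1 region, 1.41 kb upstream, in NfiB Mixed alone. The gene body of Sv2a is 14.4 kb, against 194 kb for Sv2b and 178 kb for Sv2c.

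Rab3 proteins are small GTPases that link the vesicle to the active zone scaffold Rims1. Rab3c had 13 regions in its gene body, 1 of them common. This region (chromosome 13, 110066610 to 110067524) had folds of 15.01 in NfiX Mixed, 6.13 in NfiX CD1, 15.42 in NfiB Mixed, 10.28 in NfiB CD1, 9.78 in NfiA Mixed and 6.83 in NfiA CD1. It lay at the far end of the gene, 213 kb from the Rab3c start, and the nearest start, that of Pde4d, was 132 kb away. Another intronic region (110139191, its start) was missing from NfiX CD1 alone and had folds of 9.52 in NfiX Mixed, 14.03 in NfiB Mixed, 16.02 in NfiB CD1, 9.20 in NfiA Mixed and 10.17 in NfiA CD1. Rab3a, a gene of 4.0 kb, had 1 region (chromosome 8, 70757868 to 70759126), over its end and the end of Mpv17l2. Its folds were 7.49 in NfiX Mixed, 7.90 in NfiB Mixed, 9.33 in NfiB CD1, 7.14 in NfiA Mixed and 4.74 in NfiA CD1, with no peak in NfiX CD1.

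All 7 active zone genes had regions, 52 in all, and these were the longest of the 4 role groups with a median of 349 kb. Of all genes of 150 kb or longer, 94.4% had a region and 56.5% a common one. A common region was found at 2 of the 7 (28.6%), and Bsn and Unc13a are shorter than 150 kb. Of the 52 regions 3 (5.77%) were common, against 13.2% of regions away from the members, with 2 at Pclo and 1 at Rims1. Another 10 lacked NfiX CD1 alone, so 13 of the 52 were common to the other 5 libraries. Of regions away from the members, 13.2% were common and a further 12.1% lacked NfiX CD1 alone. No interval was computed for the 52 regions, and whether their share of common regions differs from that elsewhere was not tested. Pclo encodes piccolo, a giant scaffold of the presynaptic matrix, and had 11 regions in its body. The leading one (chromosome 5, 14804693 to 14805059) had folds of 14.29 in NfiX Mixed, 11.85 in NfiX CD1, 5.85 in NfiB Mixed, 5.54 in NfiB CD1, 7.82 in NfiA Mixed and 8.76 in NfiA CD1. Within the lists the peak stood at percentiles 94.9 in NfiX Mixed, 93.8 in NfiX CD1, 55.4 in NfiB Mixed, 47.3 in NfiB CD1, 78.5 in NfiA Mixed and 83.5 in NfiA CD1. The other common region (14834092, its start) had folds of 5.72 to 9.97.

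Rims1, which ties vesicles to calcium channels, had 11 regions. Its common region (chromosome 1, 22258310 to 22259075) lay beyond the end of the gene, 547 kb from its first start, with folds of 9.42 in NfiX Mixed, 5.26 in NfiX CD1, 10.71 in NfiB Mixed, 6.62 in NfiB CD1, 7.22 in NfiA Mixed and 5.64 in NfiA CD1. It was the weakest of the 13 leading regions, with a mean percentile of 64.1. Rims2 had 7 regions in its body, and the strongest (chromosome 15, 39249254 to 39249652) had folds of 11.10 in NfiX Mixed, 11.28 in NfiB Mixed, 12.39 in NfiB CD1, 10.82 in NfiA Mixed and 10.36 in NfiA CD1, with no peak in NfiX CD1. Its mean percentile over those 5 lists was 90.3.

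Bsn encodes bassoon, the partner scaffold of piccolo, and had 9 regions. The region in the Dag1 exon, whose palindrome is shown above, had folds of 6.93 in NfiX Mixed, 4.86 in NfiX CD1, 6.92 in NfiB CD1, 6.89 in NfiA Mixed and 5.97 in NfiA CD1, and no peak in NfiB Mixed. The Unc13 proteins prime docked vesicles. Unc13c, the form of cerebellar granule neurons, had 10 regions, 3 of which were missing from NfiX CD1 alone with folds of 3.44 to 8.27. Unc13a had 1 region, 1.45 kb from an internal start (chromosome 8, 71659749 to 71660130), with folds of 6.62 in NfiX Mixed, 7.87 in NfiB Mixed, 10.81 in NfiB CD1, 7.12 in NfiA Mixed and 6.63 in NfiA CD1. Unc13b had 3 regions, 2 of them over coding exons, in NfiX Mixed or NfiB Mixed, and 1 of the 3 had a peak in both.

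**Figure D3:**
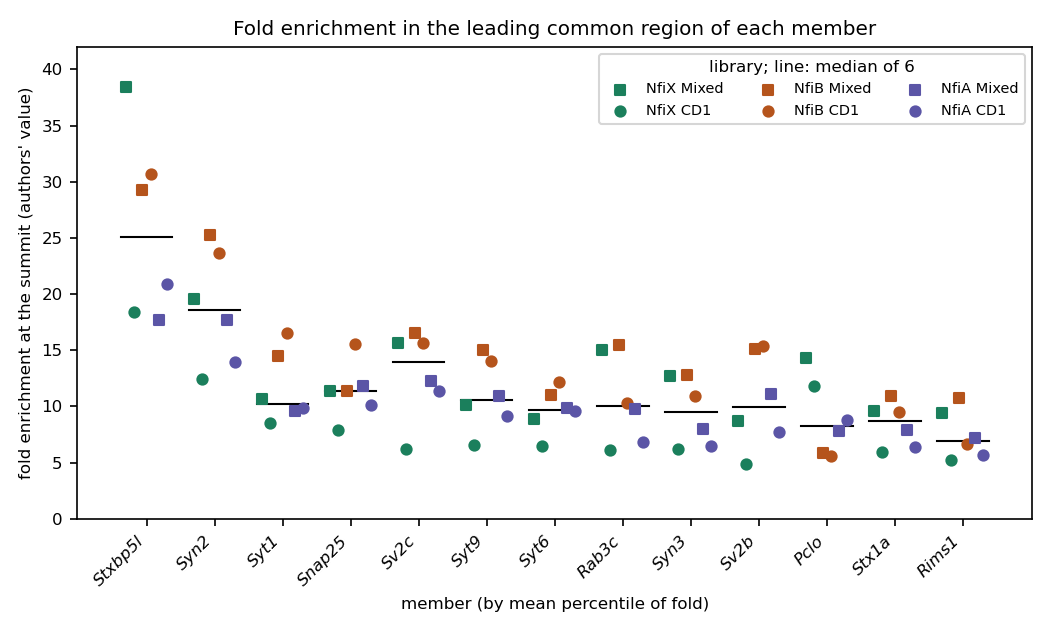
Fold enrichment at the summit (y axis, the authors' ratio) in the leading common region of each of the 13 members that have one, ordered by mean percentile. Colours are factors, squares Mixed and circles CD1 libraries, and the line is the median of the 6. Stxbp5l reached 38.44 in NfiX Mixed, and no point of Rims1 exceeded 10.71.

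The 28 common regions at members had a median mean percentile of 77.7 (range 34.1 to 99.5), against 75.8 (0.683 to 99.97) over all 6062. Their summits fell close together, with a median range over the 6 libraries of 52.5 bp at members and 62.0 bp over all common regions. In 25 of the 28 the summits lay within 100 bp. The widest, 1142 bp, was in a broad region upstream of Stxbp5l.

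Most regions at release genes were far from the gene start. Of the 211, 166 lay more than 10 kb from every annotated TSS of the member, and the median distance was 36.0 kb. These distances were not computed for regions at other genes. The centre lay within 1 kb of any protein-coding TSS in 9 regions (4.27%, 95% Wilson interval 2.26 to 7.91), against 10.1% of other regions. The assignment counts whole gene bodies of long genes, so part of this distance follows from the rule. Of the 211, 152 lay in the gene body, and 59 were assigned by the nearest TSS alone. In 45 the region lay in the body, but the nearest TSS was another gene's or was over 100 kb away. In 12 it also overlapped another protein-coding gene.

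**Figure D4:**
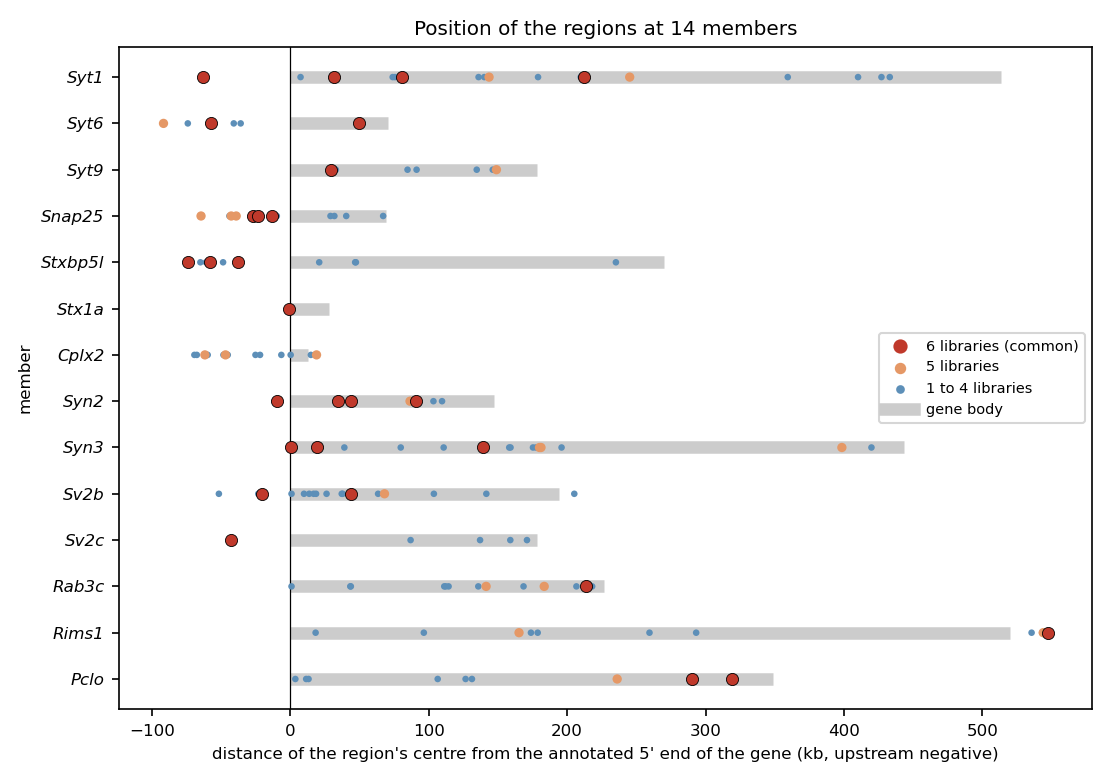
Distance of each region's centre from the annotated 5′ end (x axis, kb, upstream negative) at 14 members, the 13 with a common region and Cplx2. Grey bars are gene bodies, large red points common regions, orange points regions of 5 libraries and small blue points regions of 1 to 4. The common regions of Snap25 and Stxbp5l all lie upstream, and those of Pclo lie 290 and 319 kb inside the gene.

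A summit within 1 kb of a TSS was found at 7 members (18.4%), against 18.3% of all genes. Only 3 of them had one in 2 or more libraries. At Syn3 all 6 libraries had a peak 0.630 kb inside the start, with folds of 5.04 in NfiX Mixed, 4.92 in NfiX CD1, 5.62 in NfiB Mixed, 5.22 in NfiB CD1, 4.87 in NfiA Mixed and 4.97 in NfiA CD1. At Syn2 the 3 Mixed libraries had a peak 0.744 kb upstream of an internal start, with folds of 7.07 in NfiX Mixed, 6.81 in NfiB Mixed and 7.4 in NfiA Mixed, and no CD1 library had one. At Rab3c both NfiB libraries had a peak over the start, with folds of 2.73 in NfiB Mixed and 2.78 in NfiB CD1. Syt7, Syt10, Sv2b and Cplx2 had theirs in NfiB CD1 alone, with folds of 2.32 to 3.42. Without that library, 3 members had a promoter peak, and within 5 kb of a TSS, 21 had one. The shares of all genes at these 2 settings were not computed, so neither count is compared with them. The promoters of Rab3c and Syt10 (RefSeq, build mm10, minus strand, from 250 bases before to 50 after the start) are shown because the NfiB summits lay inside them. Capitals mark the single-arm element.
Rab3c promoter, chr13:110280157-110280456: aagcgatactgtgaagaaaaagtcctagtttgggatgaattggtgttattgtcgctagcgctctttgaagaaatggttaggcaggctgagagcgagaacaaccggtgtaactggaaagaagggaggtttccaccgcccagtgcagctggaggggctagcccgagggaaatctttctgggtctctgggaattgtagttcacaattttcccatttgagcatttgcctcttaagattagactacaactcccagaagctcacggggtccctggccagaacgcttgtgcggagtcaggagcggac
Syt10 promoter, chr15:89841811-89842110: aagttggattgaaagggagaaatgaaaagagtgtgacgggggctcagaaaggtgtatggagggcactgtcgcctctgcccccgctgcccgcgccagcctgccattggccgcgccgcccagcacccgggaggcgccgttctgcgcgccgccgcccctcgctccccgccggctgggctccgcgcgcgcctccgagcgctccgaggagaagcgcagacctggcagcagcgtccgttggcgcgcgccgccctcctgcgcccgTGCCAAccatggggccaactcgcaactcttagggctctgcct
The Rab3c window held neither element, and the Syt10 window held 1 single-arm element. RefSeq windows were matched for 28 of the 38 members, 37 windows in all. None of the 37 held the palindrome, against 0.807% of 32851 windows. The single-arm element was found in 5 of the 37, at Rab3a, Snap91, Syn2, Syp and Syt10, against 14.1% of all windows. The control was found in 1 of the 37, at Sv2c, against 0.846%.

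The factors were compared within each background, with the lengths of the lists beside them. In Mixed libraries NfiX and NfiB shared 90 member regions, 89.1% of the NfiX regions and 57.3% of the 157 of NfiB. NfiX and NfiA shared 82, 81.2% of the NfiX regions and 82.8% of the 99 of NfiA. NfiB and NfiA shared 93, 59.2% of the NfiB and 93.9% of the NfiA regions. In CD1 libraries NfiX and NfiB shared 36, all of the NfiX regions and 22.1% of the 163 of NfiB. NfiX and NfiA shared 31, 86.1% of the NfiX regions and 43.1% of the 72 of NfiA, and NfiB and NfiA shared 70, 42.9% of the NfiB and 97.2% of the NfiA regions. Regions away from the members gave shares with NfiB near these. In Mixed libraries 87.1% of the NfiX and 89.2% of the NfiA regions there were shared with NfiB, and in CD1 libraries 95% of the NfiX and 94.8% of the NfiA regions. Between NfiX and NfiA the Mixed shares away from the members were 79.3% of the NfiX and 72.1% of the NfiA regions. At members they were 81.2% and 82.8%, and the gaps were not tested. In CD1 libraries the shares away from the members were 89.8% and 39.8%, against 86.1% and 43.1% at members.

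A set of 86 member regions (40.8%, 95% Wilson interval 34.4 to 47.5) had peaks in NfiB libraries alone, against 35.7% of other regions. In 21 (9.95%) both NfiB libraries and no other had the peak, against 9.73% of other regions. No member region was held by both NfiA or by both NfiX libraries alone (interval 0 to 1.79% for each), as against 0.0807% and 0.122% of other regions. That interval includes both shares, so the absence does not set the members apart. Each factor had at least 1 peak in 84 member regions (39.8%), against 37.5% of other regions. Presence in all 6 libraries was as frequent at members as elsewhere, at 13.3% (9.34 to 18.5) against 13.2%. A further 28 regions (13.3%) had all libraries but NfiX CD1, against 12.1% of other regions. For each share given with an interval, the share of other regions lay inside it.

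Between backgrounds, the Mixed library had more member peaks than the CD1 library for NFIX, 106 against 38, and for NFIA, 105 against 78, and fewer for NFIB, 161 against 165. The whole lists were ordered the same way. The backgrounds shared 35 NFIX regions, 34.7% of the Mixed and 97.2% of the CD1 set. Away from the members these shares were 32.7% and 93.1%. They shared 117 NFIB regions, 74.5% of the Mixed and 71.8% of the CD1 set, against 79.4% and 72.4% elsewhere. They shared 64 NFIA regions, 64.6% of the Mixed and 88.9% of the CD1 set, against 59.5% and 82.6% elsewhere. Mixed libraries alone held 46 regions (21.8%), against 19.3% elsewhere, and CD1 libraries alone 41 (19.4%), against 19.1%. Paired by factor, the share of the list at members differed, Mixed minus CD1, by 0.00177 ± 0.0252 percentage points (SD, n = 3 factors). The log2 fold of member peaks relative to the other peaks of the list was higher in the Mixed library by 0.12 for NFIX, 0.05 for NFIB and 0.14 for NFIA, a mean of 0.10 ± 0.05 (SD, n = 3 factors). The paired lists differ in length and these differences were not rerun at equal length, so no change between backgrounds is read from them. With 3 factors a paired exact permutation cannot give a p below 0.25, so none is given.

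Other genes of the release pathway, from a list of 59 names of which 58 were matched, showed common regions at 14 (24.1%), against 12.9% of all protein-coding genes, and any region at 42 (72.4%), against 47.5%. These genes had a median length of 42.9 kb, which lies between that of the members and that of all genes. The 9 further active zone genes had common regions at 4, namely Rimbp2, Erc1, Erc2 and Ppfia2. The 24 further genes of the fusion machinery had them at 2, Stxbp6 and Cadps2. The 15 further vesicle genes had them at 5, among them Rab3b, Syngr1 and Slc32a1, and the 10 endocytosis genes at 3, Dnm3, Amph and Sh3gl2.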

How the data were processed

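The authors deposited 1 peak list per ChIP library, each in the narrowPeak format, with no list over pooled samples. Bowtie2 2.2.6, SAMtools 1.4.1, MACS2 2.1.0 and the build mm10 are named per the submitters' processing notes. Input use, read filters and the peak threshold were not given in the sources used here. Sequencing was single-end, per the labels' protocols. Each deposited peak carries a fold enrichment at the summit, a ratio made by the authors, and a −log10 q-value and −log10 p-value from their caller. The deposited score column was not used. The highest q-value in a list was 0.0411 to 0.0492.

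Lists were merged where peaks overlapped by 1 bp or more. Genes came from GENCODE on mm10, and a promoter peak was a summit within 1 kb of a TSS. A percentile is the standing of a fold within its own list, averaged over libraries, and a leading region is the common region of a member with the highest mean. The text names members with a common region, with a promoter summit in at least 2 libraries, or with no region. For other members it gives the region with peaks in most libraries. Members and lists were chosen with earlier results of these data known, so no p-value over members is given. The motif comparison had been planned on the genome sequence and was made on exonic windows instead. Scripts used Python 3.11.15, numpy 2.4.6, scipy 1.17.1 and matplotlib 3.10.9. The merging and assignment steps were tested on simulated peaks placed at TSSs. That test did not cover the 100 kb limit, gene bodies away from a TSS, or wrong assignment to other genes. The assignment rule, list length, q threshold, promoter size and each library were varied in turn. Intervals are 95% Wilson intervals, and the limit on a share of 0 is that of 3 counts. Some items are not reported here.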

Additional observations from a re-analysis of the deposited data

How the results depend on the processing

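The peak lists give no read totals, so a region missing from the short NfiX CD1 list may be undetected and not absent. With each library left out in turn, members with a common region numbered 13 to 22, common regions 28 to 56, their share of member regions 13.4% to 26.5%, and members with a promoter peak 3 to 7. The highest counts of common regions came without NfiX CD1, and the low count of promoters came without NfiB CD1. The share of each list at members, 0.474% as reported, was 0.348% by the nearest TSS only, 0.316% by gene bodies only, 0.416% with TSSs within 50 kb, 0.541% with no distance limit, and 0.384% when TSSs of all gene biotypes competed. These rules admit fewer or more regions by construction. Gene bodies only gave 8 members with a common region and 15 common regions. With each list cut to its 7497 highest folds, there were 64 regions, 18 common regions (28.1%), a list share of 0.536% and 2 members with a promoter peak. A promoter of 5 kb gave 21 members. The palindrome share of 14% became 32.6% with the single-arm element. The mean log2 fold difference between member and other peaks stayed at 0.01 to 0.09 in the alternatives run. Shares of all genes and of other regions were not rerun, so directions against them were not checked. The labels carry no replicate numbers. Pairing the backgrounds by factor gave the differences in the report, with no test.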
